A study of Homo sapiens with 6 samples.

Results

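The 55 protein-coding collagen, laminin and integrin genes of the SU-CCS-1 count table were examined across 6 RNA-seq libraries. The members were taken by gene symbol alone, as every protein-coding row named as a collagen chain (COL followed by a type number, A and a chain number), a laminin alpha, beta or gamma chain (LAMA, LAMB, LAMC) or an integrin alpha or beta subunit (ITGA, ITGB). They comprised 30 collagens, 9 laminins and 16 integrins among 18118 genes. SU-CCS-1 is an established human clear cell sarcoma line that carries the fusion of EWSR1 to the transcription factor gene ATF1, abbreviated EA1, and all libraries came from this 1 line. The 3 groups of 2 libraries each were cells given a negative control siRNA (siNeg1) and cells given either of 2 siRNAs against EA1, labelled siEA1-1 and siEA1-2. The design asks which genes follow the fusion in this line, so siNeg1 was set against each EA1 siRNA and against their mean, and siEA1-1 against siEA1-2. Nothing in the labels says whether the libraries of a group came from separate cultures, so the p-values measure the spread between these libraries, which may be technical.

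Collagens are trimers of chains wound into a triple helix. Fibrillar collagens form banded fibrils, collagen IV forms the sheet-like network of basement membranes, and the FACIT collagens sit on fibril surfaces. Laminins are cross-shaped trimers of 1 alpha, 1 beta and 1 gamma chain that polymerize on the cell surface as the other network of basement membranes. Integrins are alpha-beta heterodimers that hold cells to these networks and signal through talin, kindlin and focal adhesion kinase. Clear cell sarcoma is a soft tissue tumor of melanocytic differentiation, typically bound to tendons and aponeuroses.

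Library totals ran from 5942808 to 7599305 counts, and 3 counts, taken as the floor of detection, stood for 0.395 to 0.505 CPM, that is, counts scaled to the library total. Such floors, and the intervals given for ratios of low counts, cover counting error only. Counts of ATF1 were 549 and 680 with siNeg1, 149 and 123 with siEA1-1, and 122 and 159 with siEA1-2. The log2FC of ATF1, always given here as knockdown minus control so that a negative value means lower with the EA1 siRNA, was -2.03 with siEA1-1 and -1.94 with siEA1-2. For EWSR1, the other gene of the fusion, the log2FC was -0.11 with siEA1-1 and -0.045 with siEA1-2. Gene-level counts hold reads of both the fusion and the intact ATF1 gene, so a fall of the fusion and a fall of intact ATF1 cannot be told apart here. All 12 markers of the clear cell sarcoma and melanocyte lineage were in the table, and their summed level was 3457 to 3635 CPM with siNeg1, 9772 to 9799 with siEA1-1 and 8598 to 13248 with siEA1-2. PMEL was the highest of them by mean level, and the highest value of any of them in a library was 7768 CPM. The sum therefore does not give the direction of the other markers. Among markers of other cell types, LUM, the 1 of 6 fibroblast markers in the table, had 0.771 to 1.8 CPM with siNeg1, 6.26 to 9.53 with siEA1-1 and 9.97 to 18.3 with siEA1-2. The epithelial genes KRT14 and ESRP1, 2 of 6 listed, summed to 14.3 to 19.3, 74.4 to 77.1 and 69.5 to 80.5 CPM in the same order. ESRP1 was the higher of them by mean level, and the highest value of either in a library was 80.3 CPM. This sum therefore does not give the direction of KRT14. Of the endothelial and leukocyte lists 2 of 6 genes each were in the table, with sums up to 2.95 and 6.69 CPM in any library. The 6 skeletal muscle markers and the other listed genes were not in the table used here, so no level is given for them. The part of these shifts in the results that follow was not tested, and in bulk RNA fewer cells of a type and less RNA per cell cannot be told apart.

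Of the 55 members, 41 passed the filter on low counts (22 collagens, 7 laminins and 12 integrins) and entered the quasi-likelihood test of edgeR, with p adjusted (padj) over all 14571 genes tested and a call at padj under 0.05. With siEA1-1, 16 of the 41 were called higher and 8 lower, against 19.9% of all genes tested called higher and 20.3% called lower. With siEA1-2, 11 were higher and 10 lower, against 18.5% and 18.2%. For the mean of both siRNAs, 14 members rose and 9 fell, against 21.5% and 22.1%. Called with each EA1 siRNA in the same direction, with every siNeg1 library outside the range of the 4 knockdown libraries, were 10 members higher and 8 lower, where 14.8% and 15.1% of all genes tested met the same rule. COL4A4, COL24A1 and COL25A1, among the members called higher in each of these counts, passed the filter only through knockdown libraries, where they were high. With at least 10 counts required in every library they were not tested. The members called higher were then 13 with siEA1-1, 9 with siEA1-2 and 12 for the mean. The share of all genes under that filter is not given here. The median log2FC of the 41 members was 0.30 with siEA1-1, 0.05 with siEA1-2 and 0.28 for the mean, beside 0.02, 0.00 and 0.01 over all genes tested. The count of higher members rested in part on the second siNeg1 library, without which it was 10 with siEA1-1, 6 with siEA1-2 and 8 for the mean. Without the second siEA1-2 library, 14 members were lower for the mean.

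**Figure D1:**
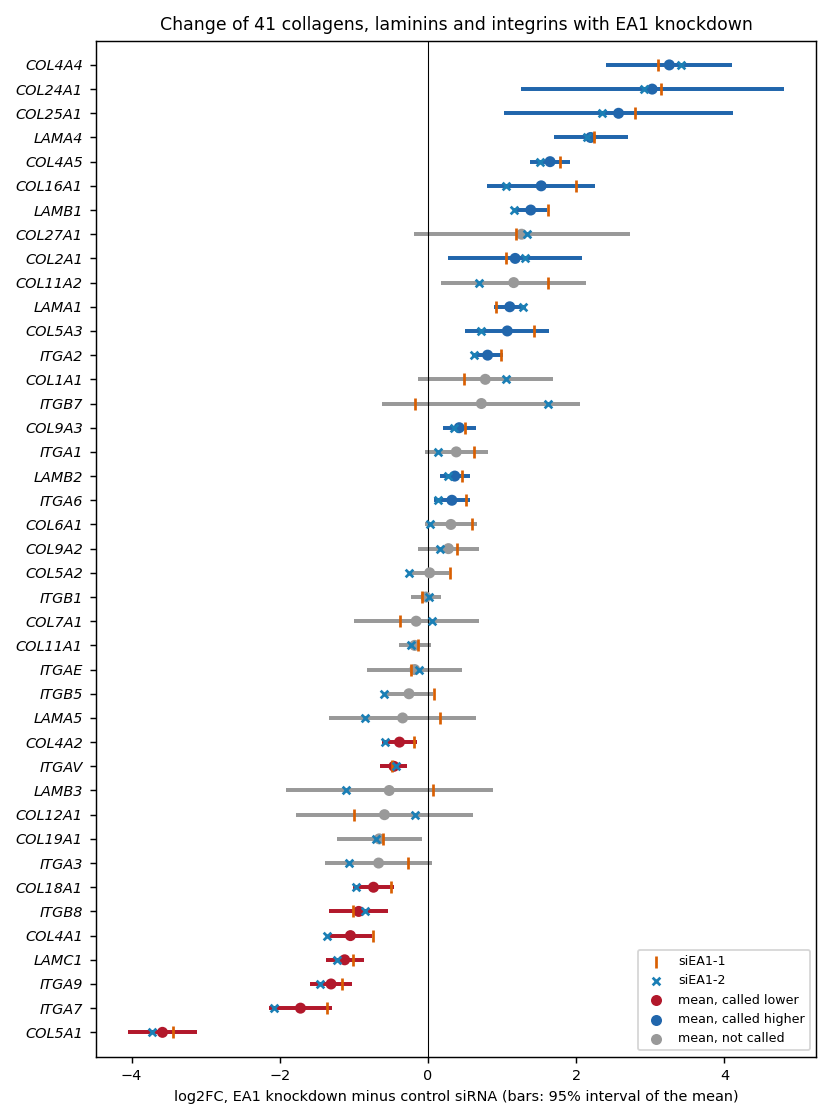
Change of the 41 tested members with EA1 knockdown. The x axis gives log2FC (knockdown minus siNeg1); dots with bars are the mean over both EA1 siRNAs with its 95% interval, colored by call, ticks are siEA1-1 and crosses siEA1-2. COL5A1 stands alone at the lower end at -3.58, and COL4A4, COL24A1 and COL25A1, all of low count, lie at the upper end with wide bars. The latter genes passed the filter only through knockdown libraries.

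**Figure D2:**
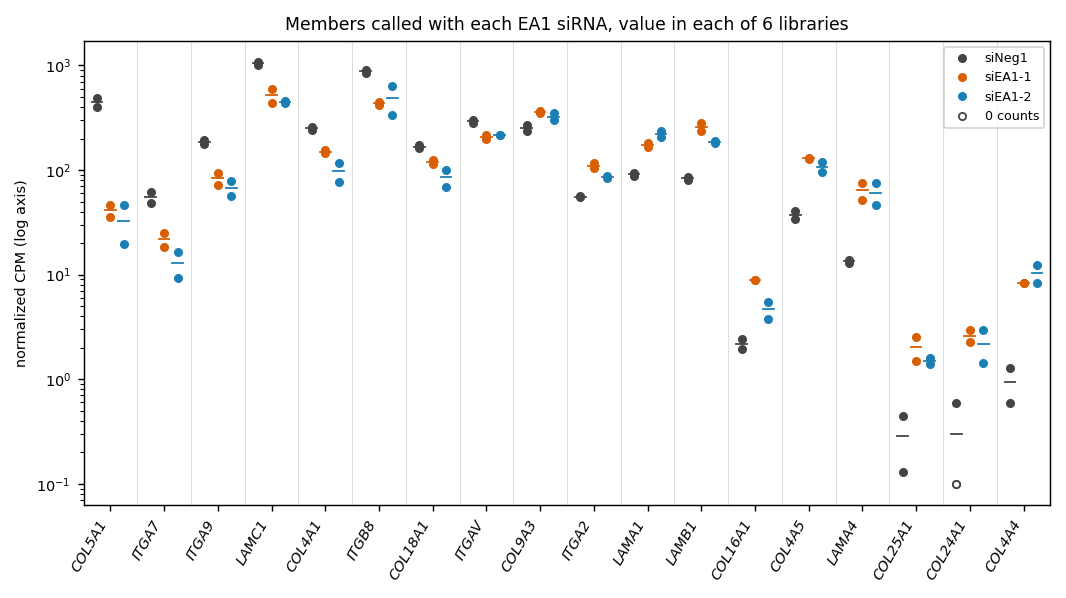
Level of the 18 members called with each EA1 siRNA in each library. The y axis is normalized CPM on a log scale, points are single libraries (2 per group), short lines are group means, and the open circle on the lower edge marks a siNeg1 library with 0 counts of COL24A1. In the siNeg1 libraries every one of the 8 members on the left lies above, and every one of the 10 on the right lies below, all 4 knockdown libraries.

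Per unit of length, in TPM, which scales counts by exon length and library total, the control cells were led by a few chains. The length is that of all annotated exons of a gene merged, so the order of genes and the size of ratios between genes depend on it. LAMC1, the gamma chain of most laminins, had the highest mean among the members with siNeg1, 443 ± 61.3 TPM, followed by COL11A1, a minor fibrillar collagen best known from cartilage, at 363 ± 44.2 TPM. Next were ITGB8 at 207 ± 29.1 TPM, COL9A3 at 186 ± 1.52 TPM, LAMB2 at 162 ± 13.4 TPM, COL5A1 at 143 ± 33.4 TPM, COL4A2 at 93.7 ± 7.68 TPM and ITGA9 at 80.2 ± 11.6 TPM. Each is the mean ± SD of 2 libraries. The SD ranges of neighbours in this order overlap for LAMC1 and COL11A1, for ITGB8 and COL9A3, for LAMB2 and COL5A1, and for COL4A2 and ITGA9. COL1A1, the main chain of collagen I in connective tissue, was at 0.711 ± 0.145 TPM. Of these 8 abundant members, LAMC1, ITGB8, COL5A1, COL4A2 and ITGA9 fell with knockdown for the mean of both siRNAs, COL9A3 and LAMB2 rose, and COL11A1 was not called.

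COL5A1 encodes the chain of collagen V that is found in nearly all collagen V trimers and helps to start collagen fibrils. It lies at chr9:134641803-134844843 (hg38, plus strand). Its level was 400.2 and 489 CPM with siNeg1, 35.8 and 46.4 with siEA1-1, and 19.8 and 46 with siEA1-2. Both siNeg1 libraries were far above all 4 knockdown libraries, and the first siEA1-2 library was the lowest. COL5A1 fell by 3.44 on the log2 scale with siEA1-1 (padj = 2.82e-06) and by 3.73 with siEA1-2 (padj = 2.17e-06), and the mean change was -3.58 ± 0.21 (SE), or 12-fold lower. Its 95% interval, -4.04 to -3.12, overlapped in size those of the low-count genes COL4A4, COL24A1 and COL25A1, which rose, and no other fall among the members had an interval that reached it.

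The promoter window of COL5A1 is printed because this gene had the largest fall. It runs from 250 bases before to 50 bases after the RefSeq start (GRCh38.p14, chr9:134641553-134641852, plus strand), 5′ to 3′, with capitals for the letters GGGCGG of the GC box, the letters CCAAT and the cyclic AMP response core TGACG, on either strand. Sp1 is known to bind the GC box and NF-Y the CCAAT box, and TGACG lies within the sites to which ATF1 and its relatives bind.
COL5A1: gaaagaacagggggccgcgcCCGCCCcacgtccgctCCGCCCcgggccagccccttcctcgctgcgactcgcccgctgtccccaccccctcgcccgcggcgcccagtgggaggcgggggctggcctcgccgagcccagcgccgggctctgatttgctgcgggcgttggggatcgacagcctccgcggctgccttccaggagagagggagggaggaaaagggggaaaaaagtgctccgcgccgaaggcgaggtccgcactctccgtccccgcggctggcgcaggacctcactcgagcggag
The window held 2 GC boxes and none of the CCAAT or TGACG letters, and 74% of its bases were G or C.

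COL5A2 and COL11A1, whose chains can share trimers with that of COL5A1, were not called. COL5A2, the second chain of the common collagen V trimer, had 65.7 and 69.3 CPM with siNeg1, 71 and 96 with siEA1-1, and 57 and 56 with siEA1-2, and its mean log2FC was 0.02 (padj = 0.897, 95% interval -0.24 to 0.29). COL11A1 had 908 and 945 CPM with siNeg1, 788 and 904 with siEA1-1, and 748 and 833 with siEA1-2, with a mean log2FC of -0.18 (padj = 0.16, 95% interval -0.39 to 0.03). In the first gene the siEA1-1 libraries lay above and the siEA1-2 libraries below those of siNeg1, and in the second all 4 knockdown libraries were below siNeg1, the nearest by less than the gap between the siNeg1 libraries. Per unit of length, COL5A1 was 3.99 and 4.63 times the level of COL5A2 in the siNeg1 libraries, 0.331 and 0.317 times with siEA1-1, and 0.227 and 0.539 times with siEA1-2. The ratio of COL5A1 to COL11A1 was 0.359 and 0.422 with siNeg1, 0.0371 and 0.0419 with siEA1-1, and 0.0215 and 0.045 with siEA1-2. Neither ratio in a knockdown library reached that of a siNeg1 library, so the more abundant collagen V chain in control cells was the less abundant with knockdown.

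Of the 22 collagens tested, 8 rose and 4 fell for the mean of both siRNAs, where 21.5% and 22.1% of all genes tested did. The 8 include COL4A4, COL24A1 and COL25A1, which passed the filter only through knockdown libraries. Of the 9 fibrillar collagens, all tested, 3 rose and COL5A1 fell. COL5A3, a less widespread collagen V chain, had 9.73 and 14.7 CPM with siNeg1, 23 and 43.5 with siEA1-1, and 21 and 19.2 with siEA1-2, and rose with siEA1-1 (log2FC 1.43, padj = 0.00203), while with siEA1-2 its padj was 0.0834. The knockdown libraries all lay above those of siNeg1, and the mean call was lost without the first siNeg1 library (padj = 0.0688). COL24A1, a fibrillar collagen known from developing bone, had 4 and 0 counts with siNeg1, 16 and 18 with siEA1-1, and 8 and 21 with siEA1-2. It rose with each siRNA, and the ratio of its pooled knockdown to pooled siNeg1 counts, scaled for library size, was 8.81 (95% interval 3.28 to 33.3). The fitted value rests on the 4 counts of the first siNeg1 library: the mean log2FC of 3.02 became 7.03 without that library, a fitted value against 0 counts that depends on the prior count, and 1.94 without the second (padj = 0.0984). The siEA1-1 call was lost without the second siNeg1 or siEA1-1 library (padj = 0.101 and 0.0836), and the siEA1-2 call without the second library of any group (padj = 0.0508 to 0.157). COL2A1, the main cartilage collagen, rose for the mean (log2FC 1.18, padj = 0.0373) from 2.54 and 2.7 CPM to 3.13 and 7.91 with siEA1-1, and 5.34 and 7.58 with siEA1-2. The first siEA1-1 library was close to siNeg1, and the mean call was lost with DESeq2 (padj = 0.066) and without either siNeg1 library, the second siEA1-1 library or the second siEA1-2 library (padj = 0.07 to 0.165). COL11A2, another minor cartilage collagen, rose with siEA1-1 (log2FC 1.62, padj = 0.0195), its value with siEA1-2 was 0.69 (padj = 0.333), and the difference between the siRNAs was not called (padj = 0.343). Without the first siNeg1 or second siEA1-1 library the siEA1-1 call was lost (padj = 0.121 and 0.18). COL1A1 and COL27A1 were of low level, with at most 5.52 CPM in any library, and were not called. COL1A1 was higher in every knockdown library than in siNeg1 (mean log2FC 0.77, padj = 0.157, 95% interval -0.14 to 1.68).

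The 6 collagen IV genes lie as 3 pairs, each pair transcribed away from a shared start region. For the 4 of them that were tested, the common chains COL4A1 and COL4A2 fell and the restricted chains COL4A4 and COL4A5 rose for the mean of both siRNAs, and COL4A3 and COL4A6 had at most 6 counts in any library. For COL4A1 and COL4A2, which form the collagen IV trimer of nearly all basement membranes, the RefSeq starts were 127 bases apart. COL4A1 (chr13:110148963-110307157, minus strand) had 258 and 242 CPM with siNeg1, 145 and 155 with siEA1-1, and 76.7 and 117 with siEA1-2. All 4 knockdown libraries were below both siNeg1 libraries, the first of siEA1-2 by most. COL4A1 fell with each siRNA (log2FC -0.74, padj = 0.00275, and -1.36, padj = 5.66e-05), with a mean of -1.05 ± 0.13. COL4A2 (chr13:110305812-110513209, plus strand) had 511 and 503 CPM with siNeg1, 422 and 468 with siEA1-1, and 297 and 381 with siEA1-2. The knockdown libraries were again all below siNeg1, but COL4A2 fell with siEA1-2 only by the test (log2FC -0.58, padj = 0.00369), its value with siEA1-1 was -0.19 (padj = 0.258), and the difference between the siRNAs was not called (padj = 0.138). The mean call of COL4A2 was lost without either siNeg1 library (padj = 0.0834 and 0.0502). The ratio of COL4A1 to COL4A2, in TPM, was 0.662 and 0.631 in the siNeg1 libraries, 0.453 and 0.434 with siEA1-1, and 0.34 and 0.404 with siEA1-2. The fall was thus unequal across the pair in every knockdown library, and no test of the ratio was run.

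The promoter windows of this pair are printed with that of COL4A5, which moved the other way. The windows of COL4A1 (chr13:110307108-110307407, minus strand) and COL4A2 (chr13:110307034-110307333, plus strand) share 226 bases (GRCh38.p14, chr13:110307108-110307333), read from opposite strands. That of COL4A5 is at chrX:108439588-108439887, plus strand. The capitals are as above.
COL4A1: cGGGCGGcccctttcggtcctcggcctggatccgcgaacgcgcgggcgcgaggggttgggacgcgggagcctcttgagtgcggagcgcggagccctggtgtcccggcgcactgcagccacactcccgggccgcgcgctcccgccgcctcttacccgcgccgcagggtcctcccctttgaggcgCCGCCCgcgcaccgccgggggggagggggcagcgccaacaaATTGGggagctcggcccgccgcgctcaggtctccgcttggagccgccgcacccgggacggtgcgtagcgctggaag
COL4A2: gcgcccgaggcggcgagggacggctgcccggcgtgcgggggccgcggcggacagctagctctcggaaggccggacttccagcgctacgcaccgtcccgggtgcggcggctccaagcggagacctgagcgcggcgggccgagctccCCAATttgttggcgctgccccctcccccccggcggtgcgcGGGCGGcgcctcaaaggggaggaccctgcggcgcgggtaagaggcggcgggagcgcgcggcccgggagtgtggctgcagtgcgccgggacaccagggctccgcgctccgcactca
COL4A5: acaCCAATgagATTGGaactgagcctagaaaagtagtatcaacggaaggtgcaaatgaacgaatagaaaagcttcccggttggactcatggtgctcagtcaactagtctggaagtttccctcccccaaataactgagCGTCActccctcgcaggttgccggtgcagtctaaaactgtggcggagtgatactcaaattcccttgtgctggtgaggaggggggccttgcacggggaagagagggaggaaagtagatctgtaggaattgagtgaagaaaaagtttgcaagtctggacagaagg
The COL4A1 window held 2 GC boxes and 1 CCAAT box, and the COL4A2 window 1 and 1. The COL4A5 window held no GC box, 2 CCAAT boxes and 1 TGACG. Its share of G and C was 49.3%, beside 76.7% for COL4A1 and 77.7% for COL4A2.

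COL4A4 and COL4A5 encode chains that, with COL4A3, form the collagen IV trimer of the kidney glomerulus and a few other sites, and whose mutation causes Alport syndrome. COL4A5 had 33.8 and 41 CPM with siNeg1, 128 and 131 with siEA1-1, and 118 and 96 with siEA1-2. Every knockdown library was above 90 CPM and both siNeg1 libraries were below 45. COL4A5 rose with each siRNA (log2FC 1.78, padj = 2.09e-06, and 1.51, padj = 8.12e-06), and the mean change was 3.13-fold. Its head-to-head neighbour COL4A6, whose GENCODE start is 341 bases away, had 3 and 4 counts with siNeg1, 6 and 3 with siEA1-1, and 3 and 2 with siEA1-2 and did not pass the filter. COL4A4 had 4 and 10 counts with siNeg1, 59 and 51 with siEA1-1, and 47 and 88 with siEA1-2. It rose with each siRNA (log2FC 3.10 and 3.41, padj = 0.000134 and 7.39e-05), and the ratio of pooled knockdown to siNeg1 counts was 9.79 (95% interval 5.72 to 18.2). COL4A3, 171 bases from COL4A4 by GENCODE, had 0 and 0 counts with siNeg1, 1 and 5 with siEA1-1, and 2 and 6 with siEA1-2 and was not tested.

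The summed TPM of the 4 tested collagen IV chains was 156 and 175 in the siNeg1 libraries, 162 and 175 with siEA1-1, and 105 and 143 with siEA1-2, with overlap between siNeg1 and siEA1-1. The joint share of COL4A4 and COL4A5 was taken of the TPM of all collagen IV genes, the untested COL4A3 and COL4A6 included. It was 6.16 and 7.71% with siNeg1, 26.5 and 25.1% with siEA1-1, and 34 and 24.7% with siEA1-2. The makeup of the collagen IV transcripts thus shifted in every knockdown library.

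Most of the remaining collagens were of low level, apart from COL9A3 and COL18A1. COL9A3, a chain of the FACIT collagen IX, had 272 and 236 CPM with siNeg1, 369 and 348 with siEA1-1, and 347 and 298 with siEA1-2. The 4 knockdown libraries lay above both siNeg1 libraries, and COL9A3 rose with each siRNA (log2FC 0.50, padj = 0.00476, and 0.34, padj = 0.035). Without the second siNeg1 library neither call held (padj = 0.0866 and 0.336), and that with siEA1-2 was also lost without either siEA1-1 library or the first siEA1-2 library. COL9A2, another chain of the same trimer, had 14.5 and 20.3 CPM with siNeg1 and was not called (mean log2FC 0.28, padj = 0.262), and COL9A1, the remaining chain, had no counts in either siNeg1 library and at most 6 in any other.

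COL16A1, a FACIT collagen that binds integrins, had 13 and 19 counts with siNeg1, 62 and 54 with siEA1-1, and 31 and 27 with siEA1-2. Its groups did not overlap, and it rose with each siRNA (log2FC 2.00, padj = 0.00098, and 1.06, padj = 0.0477). The siEA1-2 call was lost in 7 of 12 alternatives, with DESeq2 (padj = 0.144), with only the 2 groups compared (padj = 0.0886) and without any 1 library but the second of siEA1-2 (padj = 0.0802 to 0.258). The transmembrane collagen COL25A1, known from neurons, had 3 and 1 counts with siNeg1, 18 and 9 with siEA1-1, and 9 and 10 with siEA1-2. It rose with each siRNA (padj = 0.0117 and 0.0364), with a pooled count ratio of 6.43 (95% interval 2.35 to 24.6). DESeq2 called it with neither siRNA (padj = 0.0506 and 0.125), and the siEA1-2 call was lost without any 1 of the 6 libraries (padj = 0.0657 to 0.25). The siEA1-1 call was lost without the second siNeg1 or the first siEA1-1 library, and without the former the mean log2FC was 1.88 in place of 2.57. COL12A1, COL19A1 and COL7A1, the last the anchoring fibril collagen of skin, were not called. COL19A1 had 7.33 and 11.2 CPM with siNeg1, and 5.27 to 6.83 in the knockdown libraries. Its mean log2FC was -0.66 (padj = 0.0605, 95% interval -1.23 to -0.09).

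COL18A1, the basement membrane multiplexin from which endostatin is cut, also fell with each siRNA. It had 162 and 173 CPM with siNeg1, 113 and 124 with siEA1-1, and 69.1 and 101 with siEA1-2. No knockdown library reached siNeg1, and the first siEA1-2 library was the lowest. Its log2FC was -0.50 (padj = 0.0181) and -0.97 (padj = 0.000397), the first a call lost without the first siEA1-1 or the second siNeg1 library (padj = 0.128 and 0.0814). COL6A1, a chain of the beaded microfibrils of collagen VI, rose with siEA1-1 (log2FC 0.59, padj = 0.0205), its value with siEA1-2 was 0.03 (padj = 0.928), and the difference was not called (padj = 0.136). The siEA1-1 call was lost with DESeq2 (padj = 0.05) and without either siNeg1 library or the second siEA1-1 library (padj = 0.0674 to 0.306).

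Of the 7 laminins tested, 4 alpha and beta chains rose and the gamma chain LAMC1 fell for the mean of both siRNAs (21.5% and 22.1% over all genes tested). LAMC1 (chr1:183023420-183145592, hg38, plus strand) had 1014 and 1081 CPM with siNeg1, 435 and 600.4 with siEA1-1, and 436 and 455 with siEA1-2. The highest knockdown library stood at 600.4 CPM, far below both siNeg1 libraries. LAMC1 fell with each siRNA (log2FC -1.02, padj = 0.000156, and -1.23, padj = 4.99e-05), with a mean of -1.12 ± 0.12. LAMC3, the other gamma chain in the table, had 1 and 1 counts with siNeg1, 9 and 7 with siEA1-1, and 11 and 4 with siEA1-2 and did not pass the filter.

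LAMB1, the beta chain of early and widespread basement membranes, had 85.9 and 81 CPM with siNeg1, 234 and 278 with siEA1-1, and 189 and 183 with siEA1-2. The siEA1-1 libraries were the highest, then siEA1-2, then siNeg1, with no overlap between any groups. LAMB1 rose with each siRNA (log2FC 1.62, padj = 1.28e-06, and 1.16, padj = 1.56e-05). LAMB2, the beta chain of synaptic and kidney basement membranes and the more abundant here, had 316 and 311 CPM with siNeg1, 421 and 437 with siEA1-1, and 405 and 349 with siEA1-2. It lay higher in all 4 knockdown libraries and rose with siEA1-1 (log2FC 0.46, padj = 0.00488), while with siEA1-2 the value was 0.27 (padj = 0.0675). Without the second siNeg1 library the siEA1-1 call was lost (padj = 0.056), and the mean call was lost without either siNeg1 library (padj = 0.0601 and 0.0985).

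LAMA4, the alpha chain of vascular and mesenchymal basement membranes, had 13 and 13.9 CPM with siNeg1, 51.9 and 75.8 with siEA1-1, and 74.4 and 45.9 with siEA1-2. The lowest knockdown library was more than 3 times the highest siNeg1 library, and the libraries of each siRNA differed among themselves. LAMA4 rose with each siRNA (log2FC 2.24, padj = 2.99e-05, and 2.15, padj = 5.19e-05), 4.57-fold for the mean. LAMA1, the alpha chain of the first embryonic basement membrane, had 94 and 88.5 CPM with siNeg1, 166 and 179.7 with siEA1-1, and 238 and 206 with siEA1-2. Here siEA1-2 was the highest group and no groups overlapped, and LAMA1 rose with each siRNA (log2FC 0.92, padj = 5.19e-05, and 1.28, padj = 6.34e-06). LAMA5 and LAMB3, chains of epithelial laminins, had at most 3.7 CPM in any library and were not called.

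The windows of LAMC1 (chr1:183023170-183023469, plus strand) and LAMA4 (chr6:112254518-112254817, minus strand) are set side by side because these chains of the same trimer moved in opposite directions (GRCh38.p14, capitals as above).
LAMC1: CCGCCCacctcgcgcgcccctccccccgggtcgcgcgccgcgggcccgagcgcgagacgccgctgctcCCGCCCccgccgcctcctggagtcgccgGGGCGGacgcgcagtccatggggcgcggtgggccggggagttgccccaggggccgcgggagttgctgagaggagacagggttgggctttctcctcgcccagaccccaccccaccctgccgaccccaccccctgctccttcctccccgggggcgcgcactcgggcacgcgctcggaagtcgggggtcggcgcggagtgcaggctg
LAMA4: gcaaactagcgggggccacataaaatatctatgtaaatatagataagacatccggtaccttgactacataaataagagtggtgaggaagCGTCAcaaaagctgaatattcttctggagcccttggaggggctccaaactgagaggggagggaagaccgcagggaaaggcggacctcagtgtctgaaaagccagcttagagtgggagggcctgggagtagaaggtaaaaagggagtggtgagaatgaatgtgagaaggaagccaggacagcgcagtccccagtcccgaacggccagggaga
The LAMC1 window held 3 GC boxes and no CCAAT or TGACG letters, with 79% G and C. That of LAMA4 held 1 TGACG and no box of the other kinds, with 51.3%.

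Summed over each class, alpha chains stood at 24.3 and 26.4 TPM in the siNeg1 libraries, 56.5 and 66.8 with siEA1-1, and 71.8 and 65.9 with siEA1-2. Beta chains stood at 169 and 190 TPM with siNeg1, 279 and 296 with siEA1-1, and 233 and 236 with siEA1-2. Gamma chains stood at 399 and 486 TPM with siNeg1, 193 and 267 with siEA1-1, and 174 and 209 with siEA1-2. The gamma chain transcripts were 2.36 and 2.56 times those of beta chains in the siNeg1 libraries, whereas the ratio was 0.694 and 0.904 with siEA1-1, and 0.747 and 0.886 with siEA1-2, below 1 in all 4. Alpha chains were the least abundant class in every library, and the ratio of gamma to alpha chains was 16.5 and 18.4 with siNeg1, 3.42 and 4 with siEA1-1, and 2.42 and 3.18 with siEA1-2. These ratios describe transcripts, and protein was not measured.

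**Figure D3:**
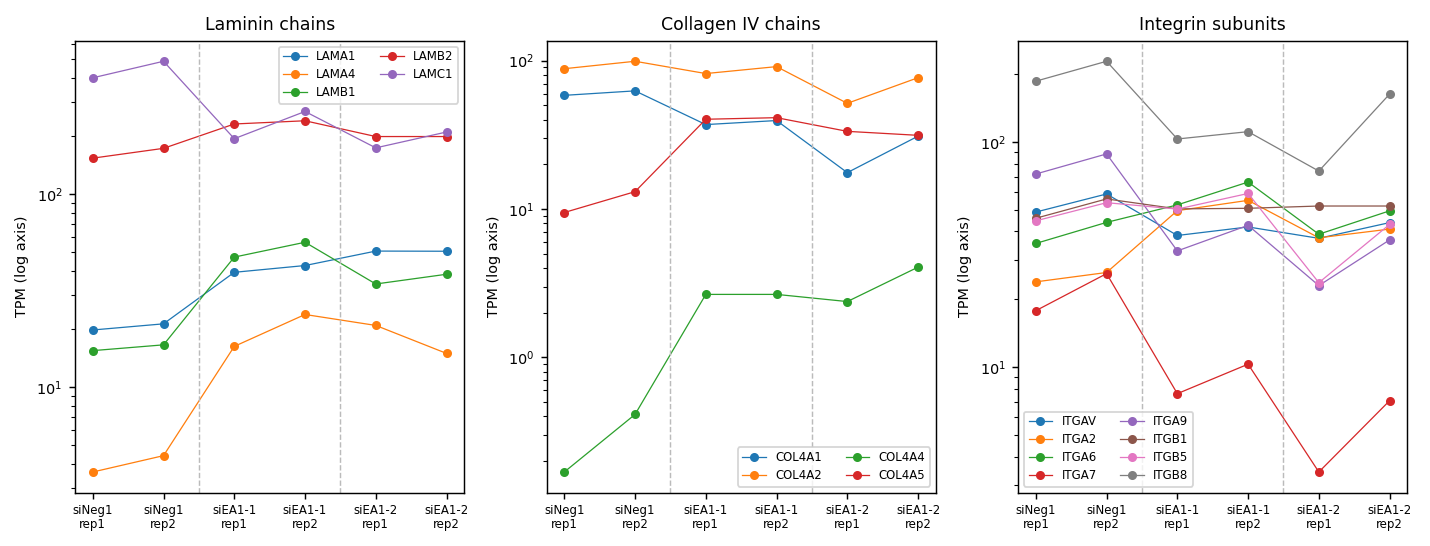
Level of laminin chains, collagen IV chains and integrin subunits in each library. The y axis is TPM on a log scale, each point is 1 library, dashed lines part the 3 groups of 2, and the thin lines only join the points of a gene. LAMC1 and COL4A1 drop where LAMA4, LAMB1, COL4A4 and COL4A5 climb, and ITGB1 keeps between 45.8 and 55.8 TPM.

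**Figure D4:**
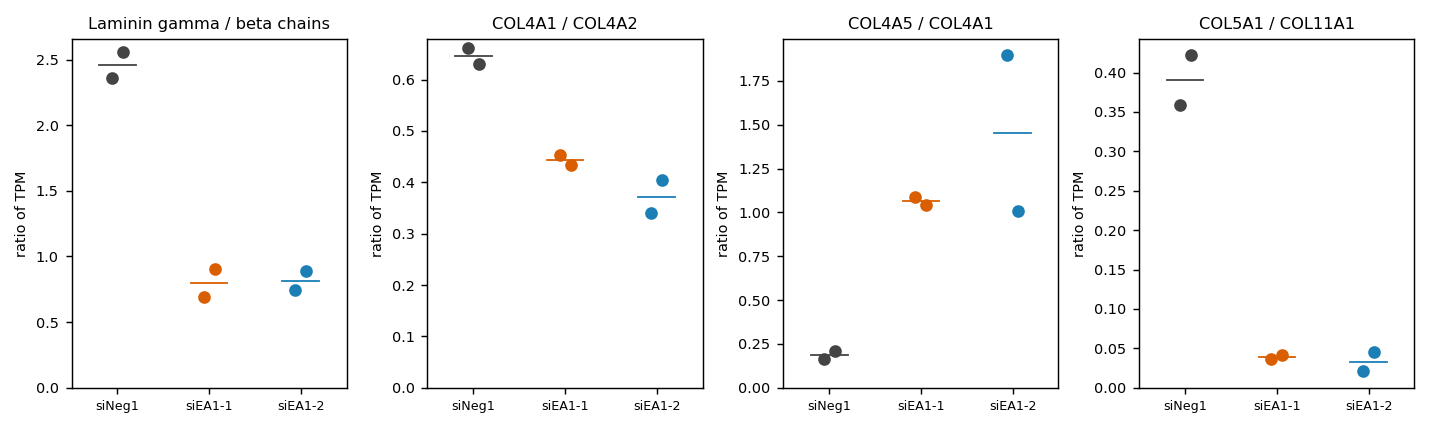
Ratios between chains in each library, computed from TPM on linear axes that start at 0. Points are single libraries, 2 per group, and short lines are their means. The laminin gamma to beta ratio lies at 2.36 and 2.56 with siNeg1 and between 0.694 and 0.904 with the EA1 siRNAs. COL4A5 to COL4A1 goes from 0.162 and 0.21 to between 1.01 and 1.9. In CPM, which is not scaled by length, COL4A5 was above COL4A1 only in the first siEA1-2 library.

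Of the 12 integrins tested, ITGA7, ITGA9, ITGAV and ITGB8 fell with each siRNA, ITGA2 rose with each, and ITGA6 was called higher for the mean, a call lost in 6 of 12 alternatives. The 4 that fell and the 1 that rose with each siRNA did so without overlap with siNeg1. Of all genes tested, 15.1% fell and 14.8% rose by that rule. ITGA7, a laminin receptor subunit best known from muscle, had 48.6 and 62.2 CPM with siNeg1, 18.5 and 24.9 with siEA1-1, and 9.26 and 16.6 with siEA1-2. The groups did not overlap, and it fell by the most among integrins (log2FC -1.36, padj = 0.000683, and -2.08, padj = 6.09e-05). ITGA9, whose heterodimer with ITGB1 binds tenascin C and osteopontin, had 179 and 193 CPM with siNeg1, 72.4 and 93.9 with siEA1-1, and 56.8 and 78.2 with siEA1-2. The siNeg1 libraries were both well above the rest, and ITGA9 fell with each siRNA (log2FC -1.16, padj = 0.000115, and -1.46, padj = 3.22e-05).

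ITGB8, which pairs only with ITGAV in a receptor that activates latent TGF-beta, was the most abundant integrin subunit per unit of length with siNeg1. It had 849 and 908 CPM with siNeg1, 418 and 450.1 with siEA1-1, and 335 and 634 with siEA1-2. No knockdown library reached siNeg1, but the siEA1-2 libraries lay on both sides of those of siEA1-1. ITGB8 fell with siEA1-1 (log2FC -1.02, padj = 0.00303) and siEA1-2 (log2FC -0.86, padj = 0.00914), the latter a call that DESeq2 did not make (padj = 0.0602). ITGAV had 284 and 299 CPM with siNeg1, 198 and 216 with siEA1-1, and 215 and 218 with siEA1-2, with close replicates, and fell less (log2FC -0.49, padj = 0.00189, and -0.43, padj = 0.00484). The ratio of ITGB8 to ITGAV, in TPM, was 3.82 and 3.88 with siNeg1, 2.69 and 2.66 with siEA1-1, and 1.99 and 3.71 with siEA1-2, so the second siEA1-2 library was close to the control value.

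ITGA2, the subunit of a collagen receptor of platelets and epithelia, had 56.7 and 54.6 CPM with siNeg1, 104 and 116 with siEA1-1, and 88.3 and 83.4 with siEA1-2. It was highest with siEA1-1 and lowest with siNeg1, without overlap, and rose with each siRNA (log2FC 0.98, padj = 2.63e-05, and 0.62, padj = 0.000896). ITGA1, another collagen receptor subunit, rose with siEA1-1 only by the test (log2FC 0.62, padj = 0.0395; with siEA1-2 0.14, padj = 0.672), a call lost with DESeq2 (padj = 0.101) and without either siNeg1 or either siEA1-1 library (padj = 0.0618 to 0.225). ITGA6, a laminin receptor subunit, had 71.1 and 77.1 CPM with siNeg1, 93.7 and 118 with siEA1-1, and 77.4 and 84.9 with siEA1-2 and rose with siEA1-1 (log2FC 0.51, padj = 0.007), with 0.13 for siEA1-2 (padj = 0.458). The siEA1-1 call was lost without the first siNeg1 or the second siEA1-1 library (padj = 0.063 and 0.13). Its mean call (log2FC 0.32, padj = 0.0344) was lost in 6 of 12 alternatives, with DESeq2 (padj = 0.0959), with the 4 knockdown libraries as 1 group (padj = 0.12) and without either siNeg1 library, the second siEA1-1 library or the second siEA1-2 library (padj = 0.0679 to 0.217). Neither difference between the siRNAs was called (padj = 0.287 and 0.154). ITGA3, a further laminin receptor subunit, was not called, and its first siEA1-2 library had 2.49 CPM where the other 5 libraries had 7.3 to 12.6.

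ITGB1, the common partner of the collagen and laminin receptor subunits, had 200.3 and 214 CPM with siNeg1, 196 and 197 with siEA1-1, and 225 and 195 with siEA1-2. The groups overlapped, the mean log2FC was -0.03 (padj = 0.819), and its 95% interval of -0.23 to 0.17 holds only small changes in either direction. ITGB5, a partner of ITGAV in vitronectin binding, fell with siEA1-2 (log2FC -0.59, padj = 0.0189; lost without either siNeg1 library or the first siEA1-2 library, padj = 0.055 to 0.0746), where its libraries had 45.9 and 72.2 CPM beside 87.3 and 92.2 with siNeg1 and 87.6 and 102 with siEA1-1. The difference between the siRNAs was 0.68 on the log2 scale (padj = 0.072). ITGAE and ITGB7, which pair in intraepithelial lymphocytes, were below 6 CPM in every library and not called.

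Between the EA1 siRNAs, no member was called higher or lower with siEA1-1 than with siEA1-2 by edgeR, against 0.796% and 1.44% of all genes tested. At an unadjusted p under 0.05 there were 16 members, and the share of all genes tested at that threshold is not given here. DESeq2 called 3 higher with siEA1-1 (COL4A1, ITGB5 and LAMB1) and 0 lower. Without a filter on low counts, edgeR called the same 3 higher. With the replicate number as a block it called 9 higher and 0 lower, and these are named in the closing section. The closest to a call were LAMB1 (log2 difference 0.46, padj = 0.0542, 95% interval 0.22 to 0.70), COL5A2 (0.56, padj = 0.0666, 0.25 to 0.87) and COL4A1 (0.62, padj = 0.0714, 0.27 to 0.97). The intervals do not reach 0, so the siRNAs were not shown to act alike on these genes. For COL5A1 the interval was -0.34 to 0.92 and for LAMC1 -0.09 to 0.53. The replicates of siEA1-2 differed for several members, and without its second library 9 members were called higher with siEA1-1 (COL18A1, COL4A1, COL4A2, COL5A1, ITGA3, ITGA7, ITGA9, ITGB5 and LAMB1) and LAMA1 lower. Without its first library, only LAMB1 was called higher and ITGB8 lower. Of 25 members with a mean of at least 10 CPM, 24 were lower in the first than in the second siEA1-1 library, 18 in siNeg1 and 15 in siEA1-2. The share of all genes lower in the first library is not given here, so these counts are not read as a trait of the members.

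Other genes of the matrix were counted from lists, for the mean of both siRNAs and beside the 21.5% of all genes tested that were called higher and the 22.1% lower. Of 26 tested genes that process and crosslink collagens, 5 rose and 5 fell, shares close to those over all genes, with a median log2FC of 0.03. SERPINH1, the collagen chaperone of the endoplasmic reticulum, rose (log2FC 0.76, padj = 9.62e-05), as did the crosslinking lysyl oxidases LOX, from 5 and 12 counts to 27 to 49, and LOXL1, from 0 and 1 to 5 to 18. LOXL4 of the same family fell (-1.28, padj = 9.13e-06), as did ADAMTS14, which trims procollagen (-1.14, padj = 4.18e-05), and P3H4, a cofactor of collagen lysine hydroxylation (-0.91, padj = 0.000495). Between the siRNAs, ADAMTS14 (-1.12, padj = 0.00932) and PLOD2, a collagen lysyl hydroxylase (-0.42, padj = 0.046), were lower with siEA1-1.

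Of 16 other basement membrane and glycoprotein genes tested, 6 rose and 5 fell, with a median of 0.12. PXDN, the peroxidase that forms the sulfilimine crosslinks of collagen IV, had 637 and 625 CPM with siNeg1, 106 and 138 with siEA1-1, and 83 and 148 with siEA1-2. It fell in every knockdown library, with a mean log2FC of -2.41 (padj = 8.7e-07), beside -1.05 for COL4A1. TGFBI, a collagen-binding integrin ligand, fell by 1.57 on the log2 scale and THBS4, a thrombospondin of tendon and muscle, by 2.84 (padj = 1.1e-05 and 1.31e-06). Fibronectin (FN1, 1.08), MATN2 (1.19) and the fibril proteoglycan LUM (3.05), also the fibroblast marker given above, rose (padj = 0.00145, 2.56e-05 and 0.000164).

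Of 13 matrix receptors that are not integrins, 4 rose and 6 fell, with a median of -0.20. The collagen receptor kinase DDR2 (1.19, padj = 1.86e-06), the hyaluronan receptor CD44 (1.32, padj = 1.2e-05) and SV2B, from 0 and 3 counts to 10 to 20, rose. The syndecans SDC2 (-1.66, padj = 1.33e-07) and SDC1 (-0.91, padj = 0.00458) and HMMR (-1.11, padj = 2.81e-05), also a mitotic spindle protein, fell. HMMR was also lower with siEA1-1 than with siEA1-2 (-0.80, padj = 0.0268). Of 41 tested genes of the integrin-linked adhesion complex, 15 rose and 12 fell, with a median of 0.16. The adaptors LIMS2 (2.78) and TNS1 (2.86) rose (padj = 3.26e-06 and 3.21e-05), the latter from 8 and 30 counts to 100 to 165. TNS3 rose by 1.46 with siEA1-1 (padj = 2.19e-06) and by 1.54 with siEA1-2 (padj = 1.76e-06). The kindlin of blood cells FERMT3 (-2.75), the kinase SRC (-1.41) and alpha-actinin ACTN1 (-0.86) fell (padj = 0.000359, 0.00411 and 9.64e-05). FERMT3 had 39 and 36 counts with siNeg1, 16 and 8 with siEA1-1, and 2 and 2 with siEA1-2, the last below the floor. Its log2FC was -1.52 with siEA1-1 and -3.98 with siEA1-2, a difference that was not called (padj = 0.0941). Of 10 matrix metalloproteinases and inhibitors, 6 rose and 2 fell, with a median of 0.70. The inhibitor TIMP3 (1.74, padj = 2.04e-06), MMP8 (1.63, padj = 2.03e-05) and MMP2, from 4 and 3 counts to 15 to 39, rose, and MMP16 fell (-0.94, padj = 0.000189).

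Promoter windows in RefSeq were found for 43 of the 55 members. The full cyclic AMP response element TGACGTCA was in none of them and in 1.85% of all 35116 windows, counted on both strands. Its core TGACG, which the full element contains, was in 12 of 43 members (27.9%), beside 24.6% of all windows. Among these were COL4A5 and LAMA4, which rose, and COL11A1 and ITGB1, which were not called. TGANNTCA, which also includes the full element, was in ITGAV and ITGB5 (11.5% of all windows), and the AP-1 letters TGAGTCA were in ITGA5 and LAMB3 (4.95%). GC boxes were in 26 members (60.5%, against 45% of all) and CCAAT boxes in 16 (37.2%, against 34.6%). A member was counted if any of its windows held the letters, whereas the share of all windows counts each window by itself. Member and window shares are thus not like measures, and no excess among the members is read from them. No window was compared with binding data, and absence of a motif says only that the letters are not in the 300-base windows of a member.

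The 14 members that did not pass the filter were ITGA2B, ITGA5, ITGA10, ITGB3, LAMA2, LAMC3, COL4A3, COL4A6, COL9A1, COL13A1, COL14A1, COL17A1, COL26A1 and COL28A1. Their levels reached at most 2.99 CPM in any library, where a change would have to be large to be detectable at this depth. ITGB3, the partner of ITGAV in vitronectin and fibrinogen binding, had 6 and 11 counts with siNeg1, 1 and 2 with siEA1-1, and 1 and 2 with siEA1-2. Fitted without a filter on low counts, LAMC3 alone among the 14 was called for the mean (log2FC 2.98, padj = 0.0331). Of the 55 members, 26 had exons that overlap a gene on the opposite strand, among them COL18A1 with SLC19A1 over 1563 bases, LAMA1 with a gene that has no symbol over 1641 bases and ITGA9 with ITGA9-AS1 over 763 bases. The use of strand in the counting is not given in the sources used here, so reads in those stretches may belong to either gene.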

How the data were processed

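Polyadenylated RNA of siRNA-transfected SU-CCS-1 cells was sequenced. The methods describe 1 siRNA against EA1, whereas the labels list siEA1-1 and siEA1-2. The authors aligned reads to hg38 with BWA-MEM, and the deposited counts per gene, made with featureCounts 1.6.3, carry no normalization. Annotation and strand setting of the counting are not given in the sources used here. BWA-MEM is not splice-aware, so reads across exon junctions of genes with many short exons, such as collagens, may be counted less often, in all libraries alike, which was not tested.

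From these counts, edgeR 4.0.16 (R 4.3.3) was run over 3 groups with filterByExpr (minimum count 10, minimum total 15), TMM normalization and quasi-likelihood tests, adjusted by Benjamini-Hochberg across 14571 genes. Standard errors and 95% intervals came from that fit (common biological coefficient of variation 0.109). TPM were computed from the merged length of all exons of a gene in GENCODE release 44, in which all 55 members were found. CPM in the text are scaled by TMM library sizes, and promoter windows came from RefSeq. The fit was tested on simulated data with known changes. The alternatives were DESeq2 1.42.0, RLE size factors, no filter, at least 10 counts in every library, a replicate block, only the groups compared, the knockdown libraries as 1 group, and each library left out.

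The members and lists were chosen with earlier results of these data known. Named members were, in each direction, up to 12 called with each EA1 siRNA without overlap with siNeg1, the 8 most abundant with siNeg1, any called between the EA1 siRNAs, and their chain partners. Partners named were up to 3 per list and direction. Other genes, such as COL5A2, COL5A3, COL2A1, COL11A2, COL6A1, ITGA1, ITGA6, ITGB5, LAMC3 and PLOD2, were named after their values were seen.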

Additional observations from a re-analysis of the deposited data

Results flagged for a closer look

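The libraries of COL5A2 lay on opposite sides of siNeg1 with the EA1 siRNAs, and neither siRNA was called against siNeg1 (padj = 0.104 and 0.181). Its level was 65.7 and 69.3 CPM in the siNeg1 libraries, 71 and 96 CPM with siEA1-1, both above siNeg1, and 57 and 56 CPM with siEA1-2, both below. The log2 difference between the siRNAs was 0.56 (95% interval 0.25 to 0.87), and it missed the threshold in edgeR's quasi-likelihood test over 3 groups (padj = 0.0666). DESeq2 did not call it either (0.55, padj = 0.0519). Among the alternatives it passed only with the replicate block (0.56, padj = 0.0186) and without the first siEA1-1 library (0.77, padj = 0.0405).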

How the results depend on the processing

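The calls for the mean of both siRNAs of COL5A1, COL4A1, COL18A1, COL4A4, COL4A5, COL16A1, LAMA1, LAMA4, LAMB1, LAMC1, ITGA2, ITGA7, ITGA9, ITGAV and ITGB8 were kept in all alternatives in which each gene was tested. ITGA6 lost its call in 6 of 12, COL2A1 in 5, COL4A2 in 3, LAMB2 in 2, COL5A3 and COL9A3 in 1 each, COL25A1 in 2 of 11 and COL24A1 in 1. With siEA1-2 alone, COL25A1 lost its call in 8 of 10, COL16A1 in 7 of 12, and COL2A1 and COL9A3 in 4 each. Counts of members called with siEA1-1, siEA1-2 or their mean stayed within 1.5 times the value reported in every alternative that kept all libraries.

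With a library left out, members higher ranged from 10 to 17 with siEA1-1, 6 to 11 with siEA1-2 and 8 to 15 for the mean, each lowest without the second siNeg1 library, and members lower for the mean ranged from 8 to 14, highest without the second siEA1-2 library. Between the EA1 siRNAs, 0 to 9 members were then higher and 0 to 1 lower. With all libraries, members higher with siEA1-1 than siEA1-2 were 3 with no filter, 1 with at least 10 counts in every library, 3 with DESeq2 and 9 with the replicate block (ITGB5, COL4A1, LAMB1, COL5A2, ITGA7, COL18A1, COL4A2, COL6A1 and ITGA6). Replicate numbers are shared by the labels without a stated batch, and deviations of same-numbered libraries correlated at 0.13, 0.20 and 0.14. The replicate block gave 16 higher and 8 lower with siEA1-1, 13 and 11 with siEA1-2, and 15 and 10 for the mean, with 73 partner genes called beside 66 without it. Shares of all genes called under the alternatives are not given here.

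With a library left out, values that were not called changed sign. The siEA1-1 minus siEA1-2 difference ranged from -0.00 to 0.19 for COL11A1, -0.18 to 0.88 for COL24A1, -0.01 to 0.77 for COL25A1, -0.56 to 0.02 for COL4A4, -0.17 to 1.06 for COL5A1, -0.12 to 0.00 for ITGAV, -0.19 to 0.01 for ITGB1, -0.55 to 0.38 for ITGB8, -0.22 to 0.47 for LAMA4 and -0.03 to 0.43 for LAMC1, and ITGB1 with siEA1-2 from -0.11 to 0.09. At their extremes, without an siEA1-2 library, COL5A1 and ITGB8 were called between the siRNAs. The cause was not tested. Groups of 2 libraries and the library totals limit what could be detected for members near the floor of 3 counts.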
